A study of Bos taurus with 47 samples.

Results

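Transcript levels were compared between bovine 2-cell embryos made by somatic cell nuclear transfer (scNT) and by in vitro fertilization (IVF). All genes with a normalized count of at least 10 in at least 4 of the 8 libraries were taken, which left 12195 of the 20526 genes in the table. The 4 scNT libraries and the 4 IVF libraries are part of a set of 47 mRNA libraries in 12 groups that also holds later embryos of both methods, mature oocytes, fibroblasts and cells derived from blastocysts. Each embryo library was made from a pool of 20 embryos, taken on day 2 for the 2-cell stage and on day 3 for the 8-cell stage.

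The scNT embryos were made from oocytes matured in vitro whose own chromosomes had been removed. A whole serum-starved fibroblast, from an ear biopsy of a Brahma and Spanish bull cross, was placed beside the oocyte, electrically fused with it, and the oocyte was then activated. The IVF embryos came from oocytes matured in vitro and fertilized with frozen semen of a Holstein bull. Both groups were cultured as embryos in vitro, and the sources used here name no genetic change in either. The method, the donor animal and the handling of the oocytes differ together between the groups, so these cannot be told apart. The labels do not say that replicates came from separate animals or cultures, and the p-values therefore reflect the spread between pools alone, part of which may be technical. In pooled embryos, fewer cells of a type and less RNA per cell cannot be told apart.

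As background, a 2-cell embryo lives mostly on RNA and protein that the egg stored before fertilization. In cattle the embryo's own genome is switched on in earnest only around the 8-cell stage, when much of the stored RNA is also broken down. In nuclear transfer the fused donor cell brings its nucleus and also its cytoplasm, and the somatic pattern of gene use has to be replaced by an embryonic one.

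The genes are given by Ensembl identifiers, which neither the table nor the reference used here pairs with names or positions. None of the lists of named genes and cell type markers could be used, and 0 of 20526 identifiers matched. The labelled cell types were therefore set against the oocyte and fibroblast libraries of the same table. The scNT libraries correlated with the oocyte libraries at r between 0.941 and 0.978 over the 12195 genes, and the IVF libraries other than replicate 3 at r between 0.941 and 0.968.

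IVF replicate 3 stood apart from every other 2-cell library. It correlated with the scNT libraries at r between 0.814 and 0.902 and with the other 3 IVF libraries at r between 0.755 and 0.890. Its r with oocytes was between 0.811 and 0.841. The scNT libraries correlated among themselves at r between 0.956 and 0.990, and the 3 other IVF libraries at r between 0.929 and 0.968. Between the scNT libraries and those 3 IVF libraries the median r was 0.969, against 0.978 among scNT libraries and 0.967 among the 3 IVF libraries. These correlations are across genes, which are not independent replicates, and are given as a description.

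**Figure D1:**
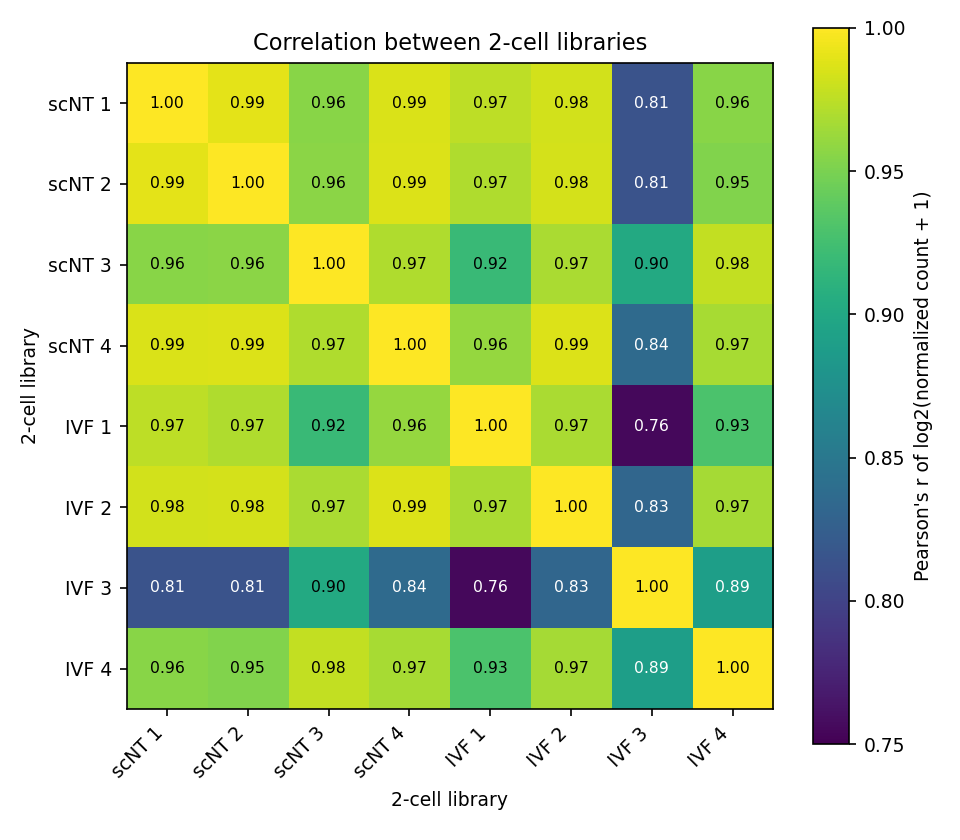
Pearson's r of log2(normalized count + 1) over 12195 genes for each pair of 2-cell libraries, scNT replicates 1 to 4 and then IVF replicates 1 to 4. The row and column of IVF replicate 3 hold the lowest values, between 0.755 and 0.902.

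The libraries held 6680061 to 12374138 recovered reads in scNT embryos and 5939973 to 16642370 in IVF embryos. Replicate 3 was the shallowest library of each group. The 10 most abundant genes took 3.47% to 4.02% of the total in the scNT libraries, 9.87% in IVF replicate 3 and 3.14% to 4.10% in the other IVF libraries. In IVF replicate 3, 78.7% of the genes lay outside the range of the other 7 libraries, 3456 above it and 6140 below it. For each of the other libraries that share was between 10.4% and 32.2%, highest in IVF replicate 1. The median SD of a gene on the log2 scale was 0.192 over the scNT libraries, 0.456 over the IVF libraries and 0.234 over the IVF libraries without replicate 3. The main results are therefore given with and without IVF replicate 3.

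Many of the genes that set IVF replicate 3 apart were abundant in later embryos and in fibroblasts. In it, 1097 genes were at least 4-fold above the median of the other 3 IVF libraries and 58 were at least 4-fold below it. The mean log2 level of the 1097 genes was 4.77, 4.69, 6.23 and 5.06 in scNT replicates 1 to 4, and 3.93, 4.91, 8.20 and 6.01 in IVF replicates 1 to 4. Replicate 3 was the highest library in each group. The same genes had a mean log2 level of 7.23 to 7.60 in scNT blastocysts, 7.47 to 7.65 in IVF blastocysts, 4.81 to 5.54 in oocytes and 8.37 to 9.03 in fibroblasts. Of the 1097 genes, 86.4% had a fibroblast median above their oocyte mean, against 42.3% of all genes tested. An IVF 8-cell mean above the oocyte mean was found for 92.3% of them, against 46.0% of all genes tested. Because these genes were chosen on IVF replicate 3, these shares are a description with no test, and whether cells of another kind were in that pool was not tested.

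**Figure D2:**
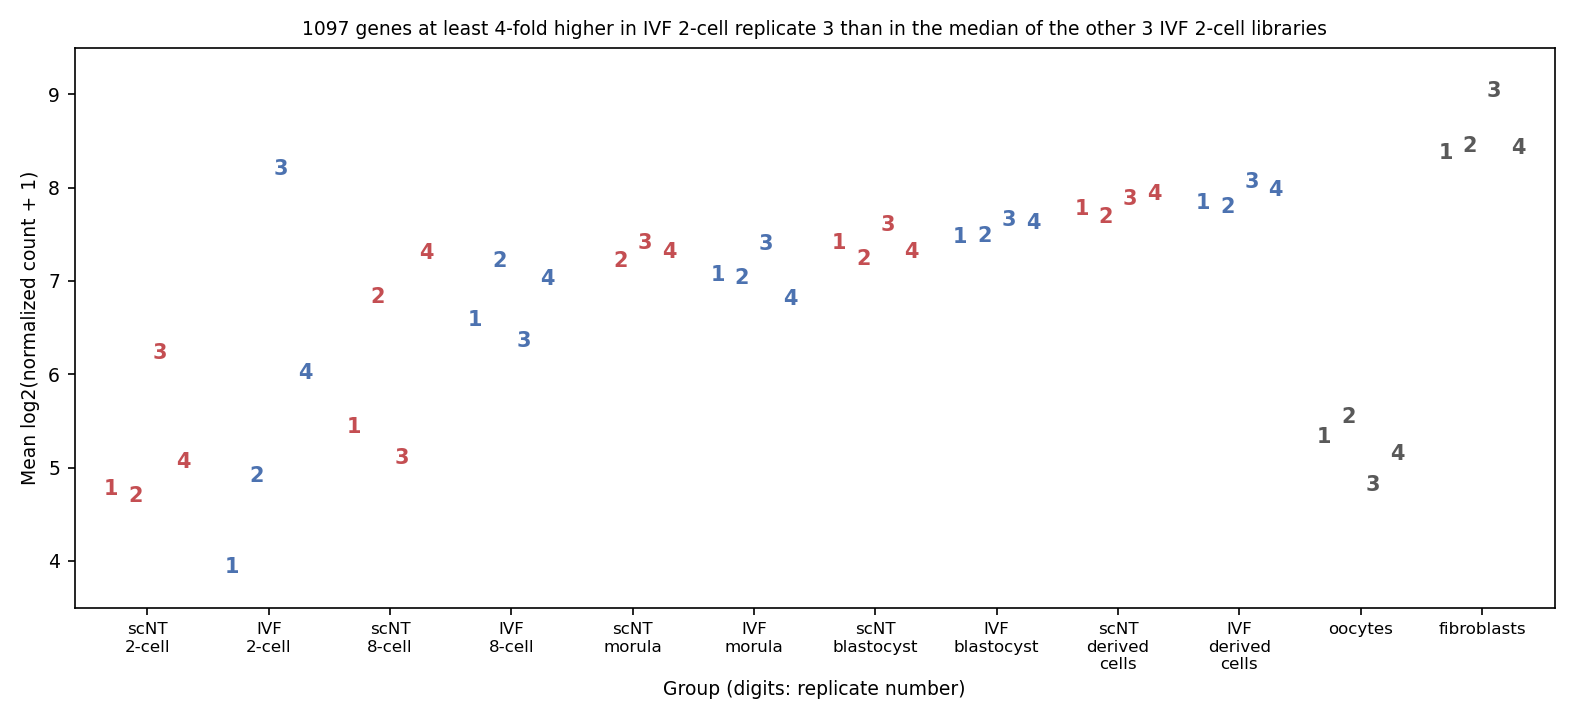
Mean log2(normalized count + 1) of 1097 genes at least 4-fold higher in IVF 2-cell replicate 3 than in the median of the other 3 IVF 2-cell libraries, for each of 47 libraries; digits are replicate numbers. IVF 2-cell replicate 3, at 8.20, lay above the other 2-cell, 8-cell, morula, blastocyst, derived-cell and oocyte libraries and below the fibroblast libraries, at 8.37 to 9.03.

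The question put to the tested genes was which transcripts differ between the methods before the main activation of the embryonic genome. Of the 12195 genes, 4 were called, which is 0.0328%, and all 4 were higher in scNT embryos (limma, two-sided, Benjamini-Hochberg adjusted p under 0.05, n = 4 and 4). Without IVF replicate 3, 8 genes were called, which is 0.0656%, all higher in scNT embryos and including those 4. No gene was called lower in scNT embryos in either fit (limma), while 107 lower genes had an unadjusted p under 0.05 with all libraries and 249 without IVF replicate 3. The higher genes at that level numbered 298 with all libraries and 469 without IVF replicate 3. When each library was scaled to an equal total, 172 genes were higher and 301 lower at that level, and 3 genes were called, all higher. That scaling moved the median difference of all genes to -0.06 on the log2 scale, against 0.07 as deposited and 0.01 without IVF replicate 3.

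The calls depended on single libraries. With scNT replicate 1 left out 0 genes were called (limma, 239 at an unadjusted p under 0.05), with any one of scNT replicates 2, 3 and 4 left out 2 were called, and with IVF replicate 4 left out 1 was called. The edgeR quasi-likelihood test on the recovered reads called 2 of the 8 genes, and DESeq2 called 9 genes, of which 6 were among the 8. The replicate number as a block left the same 4 genes called (0.0328%). With replicate 3 of both groups left out, limma called 7 genes without the block and 0 with it, where 1349 genes had an unadjusted p under 0.05.

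The intervals describe how precise the estimates were. They are unadjusted and taken gene by gene, so they do not show which differences could have been called after adjustment over 12195 genes. With all libraries, the 95% interval of the scNT minus IVF difference lay within 1 log2 unit of no change for 8353 genes (68.5%), and without IVF replicate 3 for 10123 genes (83.0%). The median width from the estimate to the end of the interval was 0.56 log2 units with all libraries and 0.37 without IVF replicate 3. For the remaining genes the interval still reached a 2-fold difference in at least one direction.

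**Figure D3:**
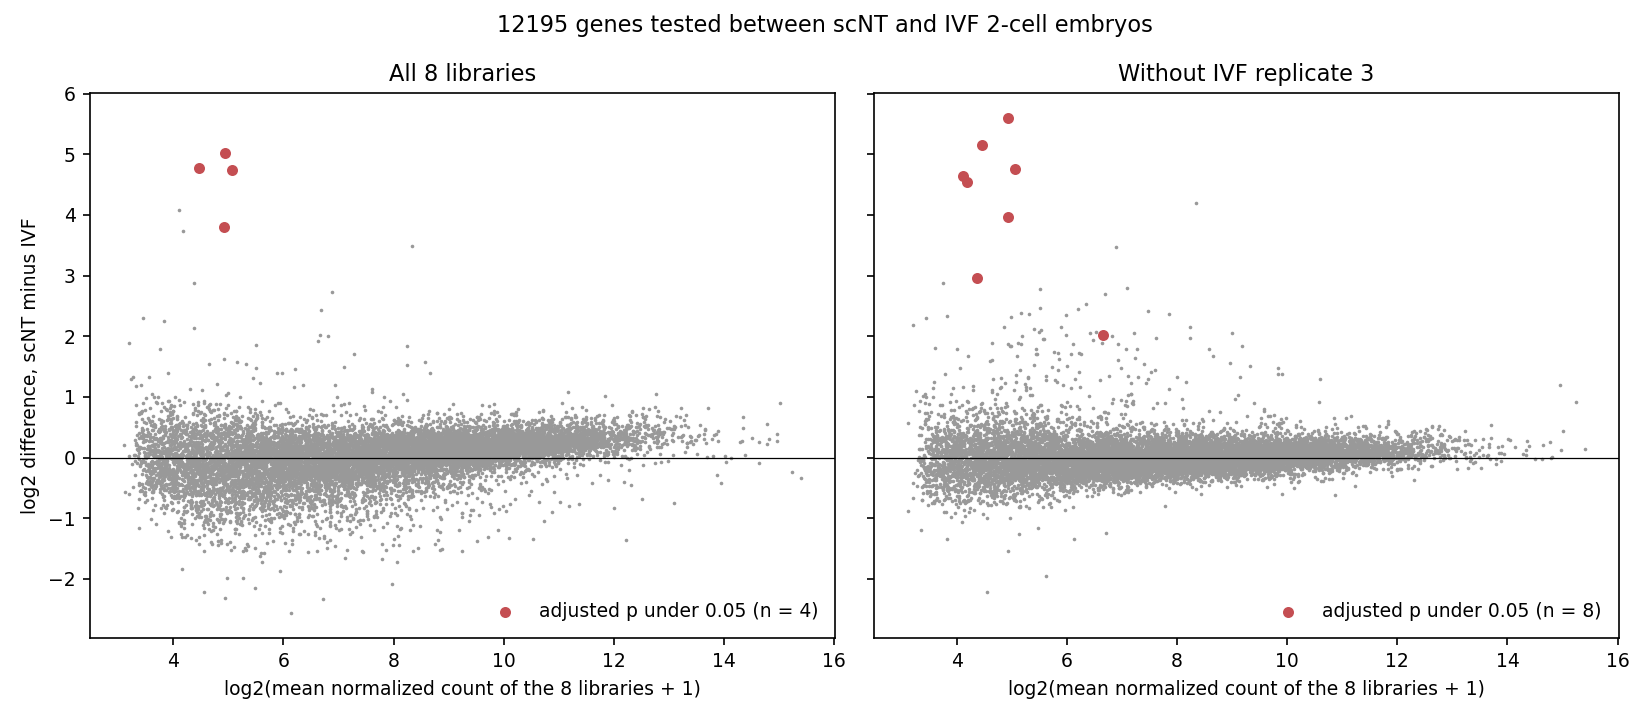
Log2 difference, scNT minus IVF, of each of 12195 genes against log2(mean normalized count of the 8 libraries + 1), with all 8 libraries (left) and without IVF replicate 3 (right); larger points are genes with a limma adjusted p under 0.05. The 4 and 8 called genes all lie above 0.

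The 8 genes called with or without IVF replicate 3 had scNT means between 31.2 and 163 normalized counts and IVF means between 0.700 and 38.3, or between 0.167 and 38.3 without IVF replicate 3. Levels of different genes are not compared per length here, since gene lengths were not used. Their log2 differences ran from 2.02 to 5.03 with all libraries and from 2.03 to 5.59 without IVF replicate 3. They are numbered here by their p-value with all libraries, genes 1 to 4 being those called with all libraries.

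Gene 1, ENSBTAG00000011847, had 60.9, 68.1, 50.8 and 43.7 normalized counts in scNT embryos, against 2.9, 2.6, 4.6 and 2.3 in IVF embryos. The lowest scNT library was far above the highest IVF library, and IVF replicate 3 was the highest of its group. The log2 difference was 3.81 ± 0.33 (SE), with a limma adjusted p of 0.00477, and without IVF replicate 3 it was 3.97 with an adjusted p of 0.00026.

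Gene 2, ENSBTAG00000030190, had 57.0, 41.0, 33.5 and 123.0 normalized counts in scNT embryos, against 1.0, 1.9, 1.2 and 0.6 in IVF embryos. The groups did not overlap, scNT replicate 4 was the highest library, and IVF replicate 3 lay among the other IVF libraries. The log2 difference was 4.74 ± 0.46 (SE), with a limma adjusted p of 0.00762, against 4.76 and 0.00147 without IVF replicate 3.

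Gene 3 had 30.1, 31.2, 62.0 and 42.2 normalized counts in scNT embryos, against 0.5, 0.0, 2.3 and 0.0 in IVF embryos. Only 3 reads in all were counted in the 4 IVF libraries, against 184 in the scNT libraries, a ratio of 82.0 after depth with an exact 95% counting interval of 27.6 to 401. Without IVF replicate 3 the IVF reads came to 1, and the ratio was 212 with an interval of 37.6 to 8410. Gene 4 had 41.1, 49.2, 53.3 and 87.4 in scNT embryos, against 0.0, 0.6, 4.6 and 0.0 in IVF embryos. Both genes were at 0 in IVF replicate 4 and highest in IVF replicate 3 within their group, and the groups did not overlap. Their log2 differences were 4.77 and 5.03, with limma adjusted p of 0.0104 and 0.0184, and without IVF replicate 3 they were 5.15 and 5.59, with adjusted p of 0.000645 and 0.00026. A fold on the log2(value + 1) scale understates the change of genes this close to 0.

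The other 4 genes were called only in the fit without IVF replicate 3. Gene 5 had 129.0, 170.6, 107.9 and 243.2 normalized counts in scNT embryos, against 50.6, 35.7, 38.1 and 28.7 in IVF embryos. It was the only one of the 8 with clear counts in IVF embryos, and its log2 difference was 2.02 with all libraries and 2.03 without IVF replicate 3 (limma adjusted p = 0.0833 and 0.0375). Gene 6 had 44.3, 41.0, 17.4 and 40.0 in scNT embryos, against 1.9, 3.8, 4.6 and 5.3 in IVF embryos. Its scNT replicate 3 was well below the other scNT libraries but still above every IVF library, and its log2 difference was 2.88 (limma adjusted p = 0.0975), against 2.96 without IVF replicate 3 (0.0375).

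Gene 7 had 27.7, 13.9, 32.2 and 51.0 normalized counts in scNT embryos, against 0.0, 0.6, 4.6 and 0.0 in IVF embryos. Gene 8 had 19.8, 32.8, 42.2 and 29.8 in scNT embryos, against 0.5, 0.0, 11.5 and 0.6 in IVF embryos. In both genes the groups did not overlap and IVF replicate 3 held most of the IVF signal. Their log2 differences were 4.08 and 3.73 with all libraries (limma adjusted p = 0.150 and 0.661), and 4.65 and 4.54 without IVF replicate 3 (0.00557 and 0.00199).

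Every one of the 8 genes was abundant in fibroblasts, the donor cell type. Their fibroblast medians ran from 5564 to 90322 normalized counts, and each lay above every oocyte value of the same gene. A fibroblast median of at least 2000 was found for 8 of the 8 genes, against 786 of the 12195 tested (6.45%). Of the 8 genes, 6 passed the filter through their scNT libraries alone, since no IVF library reached the filter's minimum value. Their place among the tested genes thus rests on their scNT level, and the comparison is a description with no test. Of those 786 genes, 27 (3.44%) had every scNT value above every IVF value, against 2.39% of all genes tested. Without IVF replicate 3 the shares were 5.85% and 3.41%. The median log2 difference of the 786 genes was -0.03 with all libraries and 0.11 without IVF replicate 3. Most of the 786 genes were thus not set apart in scNT embryos, but they were not split here by their oocyte level. In oocytes 7 of the 8 genes had at most 7.1 normalized counts in any library, while gene 5 had between 33.8 and 182.0. The scNT values of gene 5, 107.9 to 243.2, and its IVF values, 28.7 to 50.6, both overlapped its oocyte range. Its oocyte libraries had 120.1, 182.0, 33.8 and 76.9 normalized counts. Whether gene 5 was raised in scNT embryos or lowered in IVF embryos was not tested. Fibroblast replicate 3 was the lowest of the 4 fibroblast libraries for all 8 genes, at 501 to 6293, against 3780 to 106077 in the other fibroblast libraries.

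As a share of its fibroblast median, the scNT mean of a gene was between 0.180% and 0.744%, with a median over the 8 genes of 0.389%. The median share in IVF embryos was 0.0197%, and 0.00513% without IVF replicate 3. These shares compare normalized counts of libraries of different cell types and do not measure RNA per embryo or per cell. Genes 1 and 2 stood at 0.349% and 0.266% in scNT embryos, against 0.0194% and 0.00490% in IVF embryos, or 0.0162% and 0.00487% without IVF replicate 3.

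**Figure D4:**
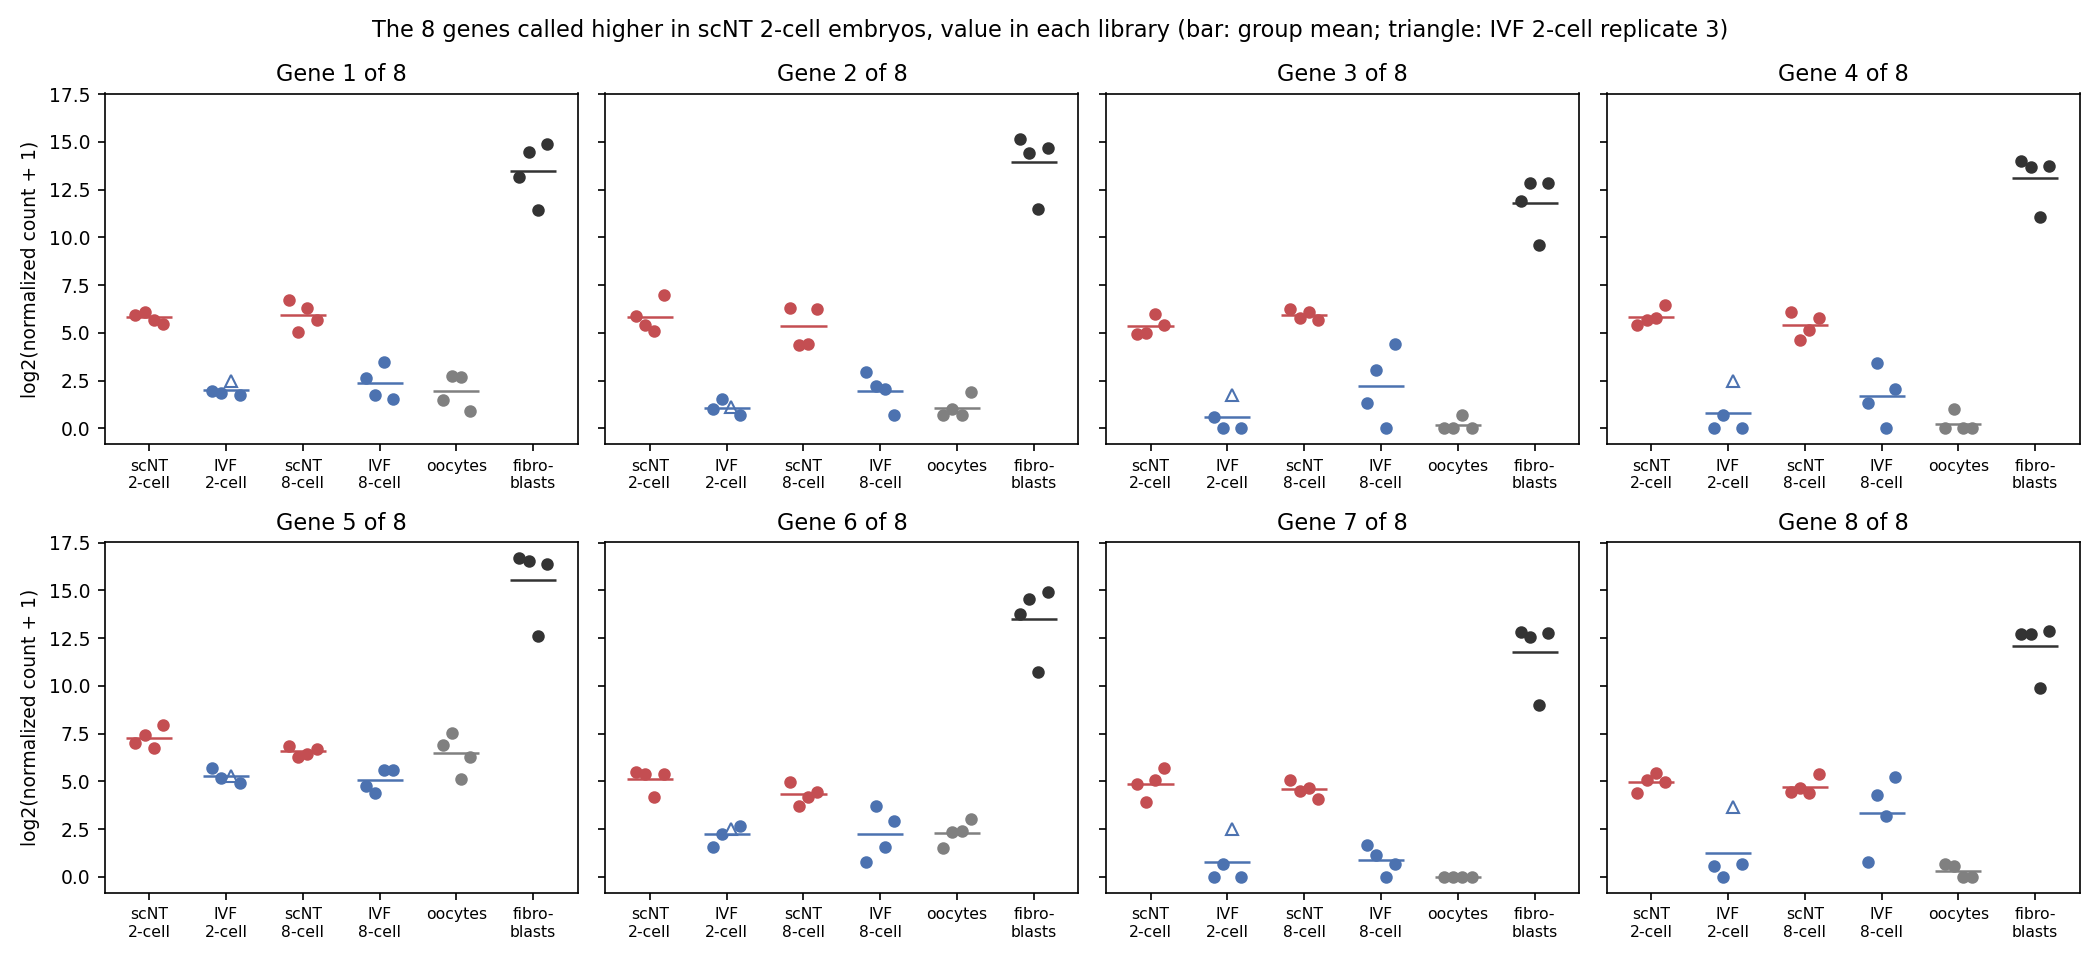
Log2(normalized count + 1) in each library of the 8 genes called higher in scNT 2-cell embryos, numbered by p-value, in scNT and IVF 2-cell embryos, scNT and IVF 8-cell embryos, oocytes and fibroblasts; bars are group means of the log2 values and the open triangle is IVF 2-cell replicate 3. The scNT points lie above the IVF points at the 2-cell stage in all 8 genes and at the 8-cell stage in 7 of 8, and the fibroblast points lie above all of them.

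The 8-cell libraries, which took no part in choosing these genes, showed differences in the same direction. All 8 genes had a higher mean log2 level in scNT than in IVF 8-cell embryos, with log2 differences between 1.34 and 3.76. In 7 of the 8 every scNT library was above every IVF library, a pattern found in 3.14% of the 13000 genes tested at that stage. For gene 6 this rests on 12.3 in the lowest scNT library against 12.2 in the highest IVF library. That gap is below the value of 1 read in those libraries (0.82 and 1.22). Gene 1 had a median of 64.1 normalized counts and a range of 32.0 to 106.0 in scNT 8-cell embryos, against 3.8 and 1.9 to 10.2 in IVF 8-cell embryos. Gene 8 was the exception, with 19.8 to 40.8 in scNT and 0.7 to 36.2 in IVF 8-cell embryos.

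None of the 8 genes passed at the 8-cell stage without the replicate block, where limma called 0 of 13000 genes (0%) with 1642 at an unadjusted p under 0.05; their adjusted p lay between 0.0949 and 0.401. With the replicate number as a block, 168 genes (1.29%) were called there by limma, and 4 of the 8 genes were among them, their adjusted p over all 8 running from 0.00632 to 0.208. As a share of the fibroblast median, the 8 genes stood at 0.105% to 1.11% in scNT 8-cell embryos, with a median of 0.348%, against a median of 0.0296% in IVF 8-cell embryos.

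The difference between the stages was tested as the scNT minus IVF difference at the 2-cell stage minus that at the 8-cell stage. Of 13474 genes tested, 0 (0%) were called by limma, with 644 at an unadjusted p under 0.05, and without IVF 2-cell replicate 3 also 0, with 1274. With the replicate number as a block, 14 genes (0.104%) were called, and none of them was among the 8. The 8 genes had interaction estimates between 0.22 and 2.39 log2 units, all toward a larger difference at the 2-cell stage, with limma adjusted p between 0.913 and 0.972. Their excess in scNT over IVF embryos was thus not shown to differ between the 2-cell and 8-cell stages. Without IVF 8-cell replicate 4, 82 genes were called in this test, also none of the 8.

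After the 8-cell stage the groups overlapped in most of these genes. In morulae, with 3 scNT and 4 IVF libraries, every scNT library was above every IVF library in 2 of the 8 genes, a pattern found in 17% of the 13590 genes that passed the filter at that stage. In blastocysts and blastocyst-derived cells it was found in 0 of 8, against 6.04% of 12607 and 4.35% of 12390 genes. The scNT median was above the IVF median in 8 of 8 genes in morulae, 5 of 8 in blastocysts and 4 of 8 in blastocyst-derived cells. These counts of medians stand without the share over all genes at each stage and are a description. Gene 1 had 3.8 to 16.6 normalized counts in scNT blastocysts and 4.1 to 9.4 in IVF blastocysts, and 174 to 419 in scNT and 90.0 to 325 in IVF blastocyst-derived cells. Gene 7, at 0 in every oocyte library, had 4.5 to 6.2 normalized counts in scNT morulae and 0.0 in every IVF morula library. The differences between methods at these later stages were not tested here.

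The level in fibroblasts was then set against the 2-cell embryos for genes nearly absent from oocytes. Genes with at most 2 normalized counts in every oocyte library were grouped by their fibroblast median, and low genes were kept. The rule used no 2-cell value, but it was set with earlier results of these data known. Of the 7 genes with a fibroblast median of at least 5000, 4 had every scNT value above every IVF value, which is 57.1%, and without IVF replicate 3 it was 5 of 7 (71.4%). Over the whole table of 20526 genes those shares were 1.65% with all libraries and 2.72% without IVF replicate 3. None of the 7 had every scNT value below every IVF value, a pattern found in 0.867% of the whole table. Of the 21 genes between 500 and 5000, 5 (23.8%) did so with all libraries and 7 (33.3%) without IVF replicate 3.

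At lower fibroblast levels the share was smaller. It was 3.23% of 124 genes between 50 and 500, and 6.45% without IVF replicate 3. It was 0% of 411 genes between 5 and 50 and 0.214% of 4205 genes under 5, against 0.730% and 0.547% without IVF replicate 3. The median log2 difference of the groups, from the highest fibroblast level down, was 3.73, 1.03, -0.15, -0.28 and 0.00 with all libraries, and 4.54, 1.54, 0.27, 0.00 and 0.00 without IVF replicate 3. The sign for genes between 50 and 500 thus depended on IVF replicate 3. The mean log2 level was higher in scNT embryos in 7 of 7 genes of the highest group and in 18 of 21 of the next, and in 7 of 7 and 20 of 21 without IVF replicate 3. Most of these genes were below the filter, 5 of the 7 and 2 of the 21 being tested. Of the 8 called genes, 4 belong to the group of 7, the other 4 having more than 2 normalized counts in some oocyte library. Those 4 of the 7 are also the ones whose scNT values all lay above the IVF values with all libraries. The share in that group thus repeats the calls and is no separate support for them.

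By library, the 7 genes had a mean log2 level of 4.57, 4.36, 4.88 and 5.21 in scNT replicates 1 to 4, against 0.39, 1.06, 3.49 and 1.22 in IVF replicates 1 to 4. All scNT libraries were above all IVF libraries, and IVF replicate 3 was the nearest to them. The mean of the untransformed values gave another order, with 25.1, 24.0, 41.3 and 41.5 normalized counts per gene in scNT embryos and 0.357, 2.36, 45.2 and 12.8 in IVF embryos. On that scale IVF replicate 3 was above every scNT library. For the 21 genes the means were 5.57, 4.01, 6.68 and 5.65 in scNT embryos and 0.257, 1.61, 18.4 and 2.16 in IVF embryos, where IVF replicate 3 was again the highest and the other 3 IVF libraries were below all scNT libraries.

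Across the 28 genes of these groups, the mean log2 level in scNT embryos followed the log2 fibroblast median with r of 0.829. For the mean log2 level in IVF embryos r was -0.02, and -0.04 without IVF replicate 3. The 28 points share the same libraries, depth and fibroblast cultures, so these values are a description.

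**Figure D5:**
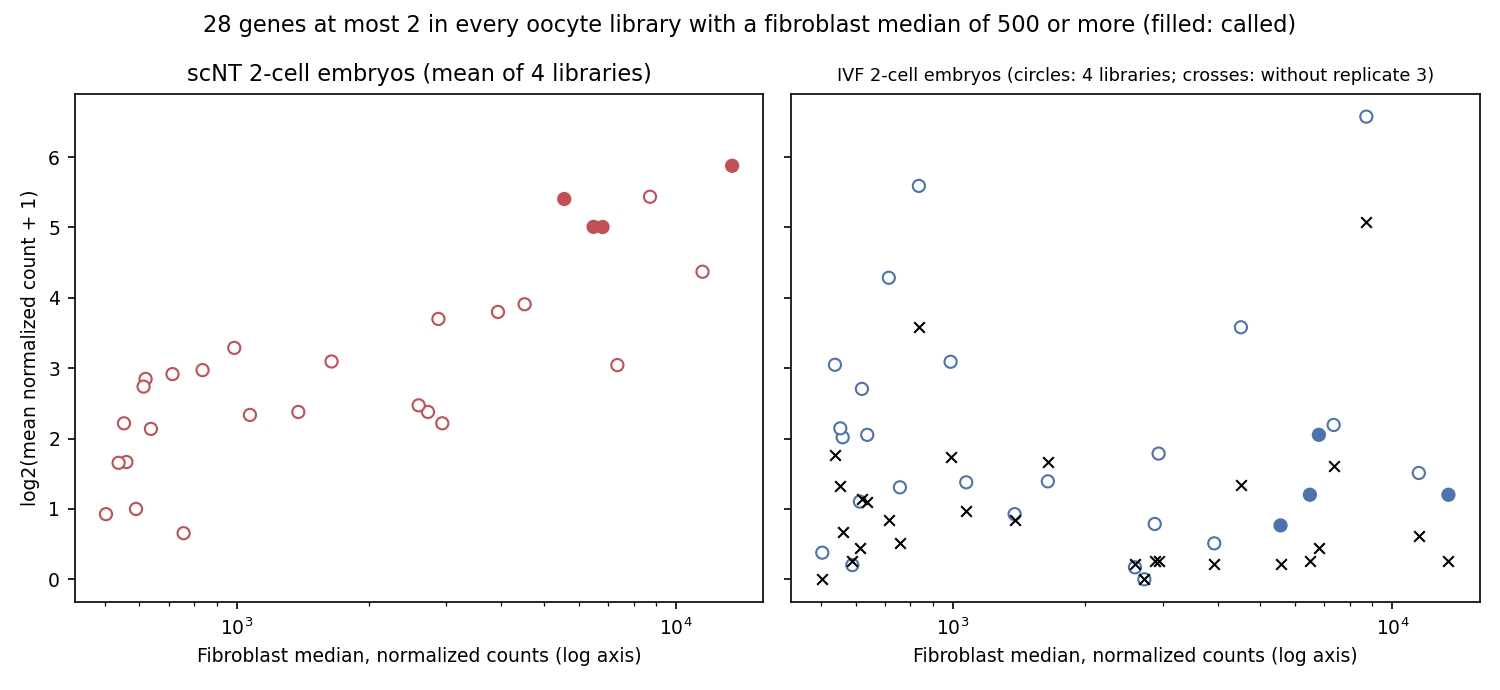
Log2(mean normalized count + 1) in scNT (left) and IVF (right) 2-cell embryos against the fibroblast median on a log axis, for 28 genes with at most 2 normalized counts in every oocyte library and a fibroblast median of at least 500. Filled points are called genes and crosses are IVF means without replicate 3. With the log2 fibroblast median, r is 0.829 in scNT and -0.02 in IVF embryos. It was computed on the mean of the log2 values, not on the plotted log2 of the mean.

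Genes that reached 10 normalized counts in every library of one group and in no library of the other were few in both directions. Of the 20526 genes in the table, 12 did so in scNT embryos and 5 in IVF embryos. Without IVF replicate 3 the numbers were 18 and 12. Of the 12 scNT genes found with all libraries, 6 were among the 8 called genes. The other 6 had 10.2 to 38.5 normalized counts in scNT embryos and at most 8.1 in IVF embryos, and the fibroblast median was at most 6 in 4 of them and 7856 in another. The 5 genes above that limit in IVF embryos had 4.7 to 9.9 normalized counts in scNT embryos, close under it, against 10.0 to 68.1 in IVF embryos. Without IVF replicate 3 their highest IVF value was 22.3, and none of the 5 was called.

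The more abundant non-overlapping genes that were not called were followed up only where their p was lowest, and those had small differences. Every scNT value was above every IVF value in 291 genes (2.39%) and below in 130 (1.07%), and without IVF replicate 3 the numbers were 416 (3.41%) and 390 (3.20%). Of the non-overlapping genes with all libraries, leaving out the called ones, the 8 per direction with the lowest p and a mean of at least 50 were taken. The 8 higher genes had scNT means between 270 and 1189 and IVF means between 163 and 800 normalized counts, log2 differences of 0.47 to 0.75, and limma adjusted p of 0.833. Only 1 of them had a fibroblast median above every oocyte value, and 2 of 8 had a higher mean log2 level in scNT than in IVF 8-cell embryos.

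The 8 lower genes had scNT means between 40.7 and 1259 and IVF means between 61.9 and 2494, log2 differences between -0.97 and -0.46, and limma adjusted p of 0.833. ENSBTAG00000020366 had 45.1, 47.6, 33.5 and 36.4 normalized counts in scNT embryos, against 103.6, 49.1, 97.0 and 80.8 in IVF embryos. IVF replicate 2 was close to the highest scNT library, and the log2 difference was -0.97 ± 0.28 (SE). ENSBTAG00000011431 had 214.4, 182.1, 174.9 and 178.4 in scNT embryos, against 255.3, 245.1, 262.1 and 269.5 in IVF embryos, a log2 difference of -0.46 ± 0.14 (SE). The IVF libraries, replicate 3 included, lay close together for this gene. In 8-cell embryos 4 of the 8 lower genes had a lower mean log2 level in scNT than in IVF embryos.

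Most of the large estimates, counted here with the called genes, were of genes that varied widely between IVF libraries. With all libraries, 57 genes had an estimate above 2-fold higher in scNT embryos and 217 above 2-fold lower, and in 211 of the 217 IVF replicate 3 was the highest IVF library. Without IVF replicate 3 the numbers were 149 and 11. In 115 of the 149 genes IVF replicate 1 was the lowest of the 3 remaining IVF libraries. The 149 genes had a mean log2 level of 5.34, 5.33, 5.76 and 5.51 in scNT replicates 1 to 4, against 2.36, 4.27, 7.28 and 4.47 in IVF replicates 1 to 4. The 149 genes were chosen as higher in scNT embryos without IVF replicate 3, so the 3 remaining IVF libraries are lower on average by that choice. IVF replicate 3, which took no part in it, lay above the scNT libraries. In 57 of the 149 all scNT values were above all 3 of those IVF values, a pattern found in 3.41% of all genes tested. The counts of highest and lowest libraries follow in part from the choice of genes, and are given without the share over all genes tested.

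The tested genes were also grouped by their level in oocytes, from which both kinds of embryo were made, and the difference between the methods in these groups moved with IVF replicate 3. With all libraries the median log2 difference was -0.20 for 1187 genes with an oocyte mean under 20, -0.07 for 4862 genes between 20 and 200, 0.14 for 5279 genes between 200 and 2000 and 0.31 for 867 genes of at least 2000. Without IVF replicate 3 the medians were 0.00, -0.03, 0.02 and 0.10. Of the 867 most abundant oocyte genes, 824 had a higher mean log2 level in scNT embryos with all libraries and 667 without IVF replicate 3. In neither fit was any of the 867 called by limma, and by the same groups every call fell in genes with an oocyte mean under 200.

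The filter left out few genes near its limit. Of the tested genes, 10793 had at least 10 normalized counts in all 8 libraries and 302 in exactly 4. The 302 genes just inside had a median of their 8-library means of 13.0 normalized counts, and the 399 genes with at least 10 in exactly 3 libraries, just outside, had 11.8.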

How the data were processed

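The members, gene classes and tests were chosen with earlier results of these data known. The submitters' processing notes list STAR, FastQC, MultiQC and DESeq2 and the genome build UMD3.1, while tool versions, annotation and read counter are not stated there. What the authors deposited is a signal per gene and library, a normalized count written to 1 decimal. In the 2-cell libraries 100% of the low values were whole multiples of the value of 1 read (0.477 to 1.24), with a tolerance of 0.05, so the reads were recovered. The design assumed normalized values and kept its log-scale test. Per the labels' protocols, libraries went through several PCR rounds. Use of molecular identifiers is not given, so counting intervals cover counting error only.

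Genes reaching 10 in 4 or more of the 8 libraries were tested with limma 3.58.1 (trend, robust; R 4.3.3) on log2(value + 1), scNT minus IVF, with no replicate block, two-sided, Benjamini-Hochberg, called at an adjusted p under 0.05. The code was tested on simulated data. Alternatives were left-out libraries, other scalings, pseudocounts, filters and array weights, 1 fit of all 47 libraries, and edgeR 4.0.16 and DESeq2 1.42.0 on recovered reads. The text names genes called with or without IVF replicate 3 and, among non-overlapping genes whose mean reached 50, the 8 per direction with the lowest p. The rule's further condition, a gene symbol, had to be dropped, and at most 2 identifiers per direction are printed. The 24 planned lists of named genes were not analysed, since 0 could be matched.

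Replicate numbers come from the sample titles. Deviations of same-numbered scNT and IVF libraries from their group means correlated at r between 0.118 and 0.683 at the 2-cell stage. At the 8-cell stage their r was between 0.231 and 0.563. Differently numbered libraries had r between -0.739 and 0.548 at the 2-cell stage, which overlaps the same-numbered pairs. At the 8-cell stage they had r between -0.501 and 0.213, below every same-numbered pair. The numbers were thus not shown to pair the 2-cell libraries, and the replicate block was used only as an alternative. Labels differ on whether 3 or 4 pools were made per stage. The libraries in the table were used.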

Additional observations from a re-analysis of the deposited data

Results flagged for a closer look

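Of 66 sets of 4 libraries examined for a library far from the others, 3 stood out, about as many as chance gives at 1 in 20. In IVF 2-cell embryos the share of the total taken by the 10 most abundant genes was 9.87% in replicate 3 and 3.14% to 4.10% in the others, so that the gap to the nearest library was 0.856 of the whole range. In scNT 2-cell embryos gene 6 of the 8 called genes had 17.4 normalized counts in replicate 3 and 40.0 to 44.3 in the others, a gap of 0.889 of the range on the log2 scale. Also in scNT 2-cell embryos, the mean log2 level of 411 genes with at most 2 normalized counts in every oocyte library and a fibroblast median from 5 to 50 was 0.837 in replicate 3 and 0.420 to 0.488 in the others, a gap of 0.838 of the range.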

How the results depend on the processing

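No setting reversed the direction of a value of the 24 named genes. The median difference of all genes did change sign, from 0.07 to -0.06 with equal library totals and to -0.01 with median-of-ratios size factors, -0.05 with edgeR and -0.05 with DESeq2, and that of the 124 genes with a fibroblast median between 50 and 500 was -0.15 with all libraries and 0.27 without IVF replicate 3. Against 4 calls in the 2-cell comparison, counts under other settings were 0 to 8 with 1 library left out, 0 with a value of 10 required in all but 1 library (a rule that removes genes near 0 in IVF embryos by construction), 8 with array weights, 2 with edgeR and 9 with DESeq2. After the data were seen, leaving out replicate 3 of both groups was added and gave 7 calls, and 0 with the replicate block as well (limma, 1349 genes at an unadjusted p under 0.05). The block alone gave 4 calls, and 1 fit of all 47 libraries gave 6. In the test of the difference between stages, counts were 0 to 82 with 1 library left out, 82 without IVF 8-cell replicate 4 and 1 without scNT 8-cell replicate 3, and 14 (0.104%) with the replicate block, against 0. With all 8 libraries the block changed no call at the 2-cell stage. Over those 24 genes and 521 values, 481 kept their side of the threshold, 23 lost it and 17 gained it. All 23 losses were in the 4 genes called with all libraries, since only these could lose a call. The 8 genes per direction chosen as not called started far from the threshold, so the 481 do not measure how stable the calls were. Gene 4 lost its call with equal library totals (limma adjusted p = 0.0615) and kept it with the replicate block (limma adjusted p = 0.00883). The cause of these moves was not tested, and IVF replicate 3, the shallowest 2-cell library at 5939973 reads, limits what low genes can show.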
